A study of Homo sapiens with 4 samples.

Results

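The 10 genes described here encode proteins of the basement membrane, the sheet of extracellular matrix on which epithelial cells, including those of the early embryo, rest. They are the laminin chain genes LAMA1, LAMA5, LAMB1, LAMB2 and LAMC1, the nidogen genes NID1 and NID2, HSPG2 (perlecan), AGRN (agrin) and SPARC. They were chosen by name, as the main laminin chains and their partner proteins, out of 60564 gene identifiers in the count files. Earlier results of these data were known when the choice was made. All 10 were among the 22555 genes that passed the filter on low counts. RNA was sequenced from Elf1 cells, a naïve human embryonic stem cell (ESC) line, grown either in 2-D or in 3-D culture, with 2 libraries per condition. In 2-D culture, cells adhered to coated plastic, with Matrigel as the feeder-free coating. In 3-D culture, single cells were encapsulated in a scaffold that self-assembles from the polyethylene glycol polymers PEG-8-SH and PEG-8-Acr, and were kept there for 21 days. Both conditions used the same line and the same ESC expansion medium, which per the study's methods holds FGF2, LIF and the inhibitors CHIR99021 and PD03296501, and no other line was analysed here. By the same methods the line was kept on mouse embryonic feeders and moved to feeder-free culture on Matrigel before encapsulation. Those methods do not say whether the sequenced 2-D cells had grown on feeders or on Matrigel. Matrigel is itself an extract of mouse basement membrane, rich in laminin, whereas the values here are of RNA only and say nothing of the protein present in either culture.

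A laminin is a trimer of an α, a β and a γ chain, which assemble in the secretory pathway and polymerize at the cell surface, where integrins and dystroglycan bind them. Nidogens link the laminin network to the type IV collagen network, and perlecan and agrin, both of which carry heparan sulfate chains, tie it to receptors and to growth factors. SPARC is a secreted glycoprotein that binds collagens and affects their assembly. Laminins are among the earliest matrix proteins of the mammalian embryo, and human ESCs are commonly grown on laminin or on laminin-rich matrix.

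Transcripts of all 10 genes were abundant enough to be tested, and most differed little between the culture conditions. NID1 and HSPG2 were higher in 3-D grown cells, by 19.3% and 14.5%, and none of the 10 was called lower, as 3.36% of all tested genes were. The 5 laminin chain genes had changes between −2.31% and 13.97%, none of which passed the threshold. The study, by its own test and cutoff, lists LAMC1 and LAMB2 among the focal adhesion genes that were higher in 3-D. Here their estimates were also higher in 3-D, by 6.07% and 13.97%, but neither was called. Values are CPM, the counts of a gene relative to the size of its library, scaled with TMM factors. Fold changes give the level in 3-D divided by that in 2-D culture. A gene was called when its p from the quasi-likelihood (QL) test of edgeR, adjusted over all tested genes by Benjamini-Hochberg (BH), was below 0.05. The 2 calls among 10 genes stand beside 7.90% of all tested genes called in either direction and 4.54% called higher. Libraries of a condition did not overlap those of the other in 7 of the 10 genes, as in 50.5% of all tested genes. The median log2 fold change was 0.06 over the 10 genes, with 8 of them above 0, and −0.000135 over all tested genes.

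**Figure D1:**
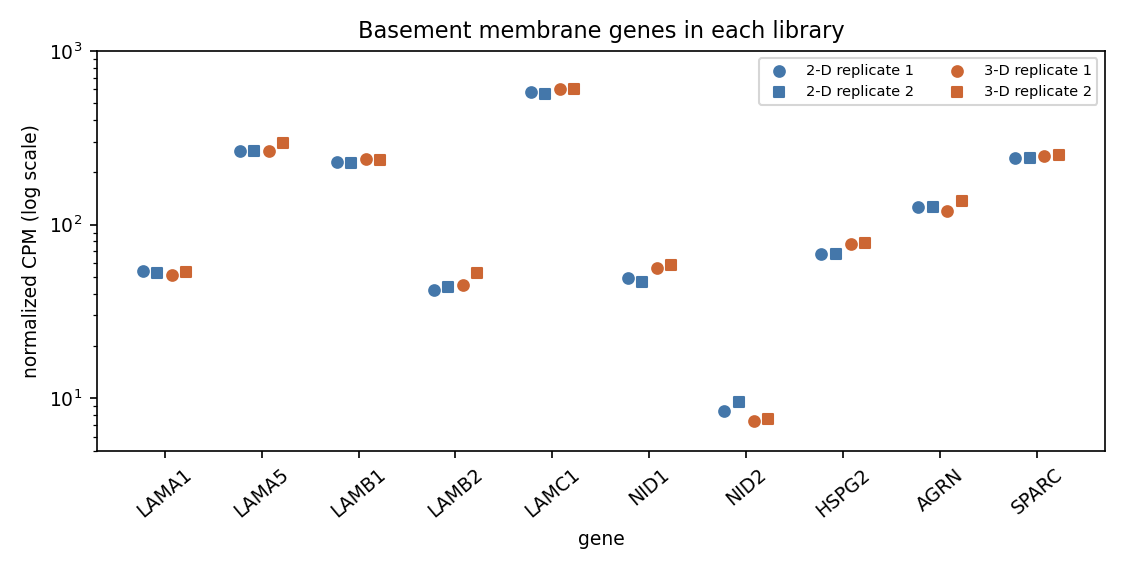
Normalized CPM (log axis) of the 10 basement membrane genes in each of the 4 libraries, with 2-D libraries in blue and 3-D libraries in orange. LAMC1 was highest, at 560 to 603, and NID2 lowest, at 7.44 to 9.51, and within most genes the 4 points lie close together.

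Library totals were 33833778 and 30114220 counts in 2-D and 21154409 and 18276147 in 3-D. The 10 genes took 0.166 to 0.173% of the counts of a library, with 136 to 19812 counts per gene and library. Mitochondrially encoded genes held 5.10 to 5.30% of the counts in 2-D and 8.33 to 8.50% in 3-D. The line is labelled as naïve ESCs, and the core pluripotency markers summed to 3340 to 3450 CPM with none of 6 called. Naive markers summed to 216 to 231 CPM with none of 7 tested genes called, although DPPA5 had 0 to 4 counts and KLF17 16 to 29 counts in a library. The study's methods call the libraries independent biological replicates. Counts of replicates differed by more than sampling noise, which does not tell separate cultures from separate libraries of the same culture. The spread between replicates beyond sampling noise, as a biological coefficient of variation in edgeR, was 5.10%. Because RNA was taken from whole cultures, a change in the share of cells that express a gene cannot be told apart from a change in RNA per cell.

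LAMC1, on chromosome 1 from 183023420 to 183145592 (hg38, plus strand), encodes the γ1 chain, which most laminins contain. It had 575 and 560 CPM in 2-D and 602 and 603 in 3-D, which placed it at rank 174 of the tested genes by mean CPM. Both 3-D libraries lay above both 2-D libraries, but by little. The log2 fold change of 0.08 (SE, the standard error, 0.03, 95% interval 0.02 to 0.15) did not pass the threshold (edgeR QL test, BH adjusted p = 0.116). Without 3-D replicate 1 it remained at 0.08 with an adjusted p of 0.0498 from the same edgeR test.

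LAMA5, on chromosome 20 from 62307955 to 62367312, encodes the α5 chain, found in many epithelial basement membranes. It had 265 and 265 CPM in 2-D and 263 and 293 in 3-D. Only 3-D replicate 2 stood above the rest. The log2 fold change was 0.07 (SE 0.04, 95% interval −0.02 to 0.16, edgeR QL test, BH adjusted p = 0.393). It became 0.14 and called without 3-D replicate 1 (edgeR QL test, BH adjusted p = 0.00107) and −0.01 without 3-D replicate 2. LAMA1, on chromosome 18 from 6941742 to 7117797, encodes the α1 chain, prominent in the early embryo and in the laminin of Matrigel. It had 54.2 and 52.9 CPM in 2-D and 51.4 and 53.3 in 3-D, so that the conditions overlapped. Its log2 fold change of −0.03 had a 95% interval of −0.13 to 0.06 (edgeR QL test, BH adjusted p = 0.740).

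LAMB1, on chromosome 7 from 107923799 to 108003213, encodes the β1 chain, the usual partner of γ1 in the embryo. It had 229 and 226 CPM in 2-D and 237 and 236 in 3-D, a log2 fold change of 0.06 (SE 0.03, 95% interval −0.01 to 0.12, edgeR QL test, BH adjusted p = 0.312). LAMB2, on chromosome 3 from 49121114 to 49133118, encodes the β2 chain, known from the kidney filter and the neuromuscular junction. It had 41.8 and 43.5 CPM in 2-D and 45.0 and 52.4 in 3-D. The 3-D replicates thus differed from each other by more than 3-D replicate 1 differed from the 2-D libraries. The log2 fold change of 0.19 (SE 0.07, 95% interval 0.05 to 0.33) was not called (edgeR QL test, BH adjusted p = 0.110). It was 0.30 and called without 3-D replicate 1 (edgeR QL test, BH adjusted p = 0.00255) and 0.07 without 3-D replicate 2 (edgeR QL test, BH adjusted p = 0.532).

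Levels were also compared between genes per length, as CPM per kb of a gene's exons merged. On this scale LAMC1 was highest, with 66.3 to 71.4 CPM per kb over the 4 libraries, followed by SPARC with 52.0 to 53.9 and LAMA5 with 18.4 to 20.5. LAMB1 (12.1 to 12.7) and AGRN (11.2 to 12.8) had overlapping ranges. Below them came NID1 (8.02 to 10.01), LAMB2 (6.10 to 7.64), HSPG2 (3.71 to 4.29), LAMA1 (3.24 to 3.42) and NID2 (1.197 to 1.53), whose ranges did not overlap. The order depends on the length used, since LAMB1 has 18592 bases of exons in all but a longest transcript of 6737 bases. Per kb of the longest transcript, LAMB1 (33.5 to 35.2) stood above LAMA5 (23.1 to 25.6), LAMC1 (70.7 to 76.0) overlapped SPARC (69.9 to 72.4), HSPG2 (4.69 to 5.43) overlapped LAMA1 (4.96 to 5.22), and NID1 (8.05 to 10.05) overlapped LAMB2 (7.35 to 9.21).

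Among the α and among the β chains, 1 gene held most of the level per length in every library. LAMA5 made up 75.7 to 77.4% of the summed α chain level per kb of exons and LAMB1 59.8 to 64.4% of the β chains. LAMB2 held 31.9 to 36.1% of the β chains. With the longest transcript, the shares were 66.4 to 68.5% for LAMA5 and 77.5 to 80.7% for LAMB1. The α5 and β1 genes were thus the highest of their classes under both lengths and in both conditions. LAMA2, which encodes the α2 chain known from muscle, had 2.29 to 2.37 CPM per kb of exons, below LAMA1, but 6.06 to 6.28 per kb of the longest transcript, above LAMA1.

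**Figure D2:**
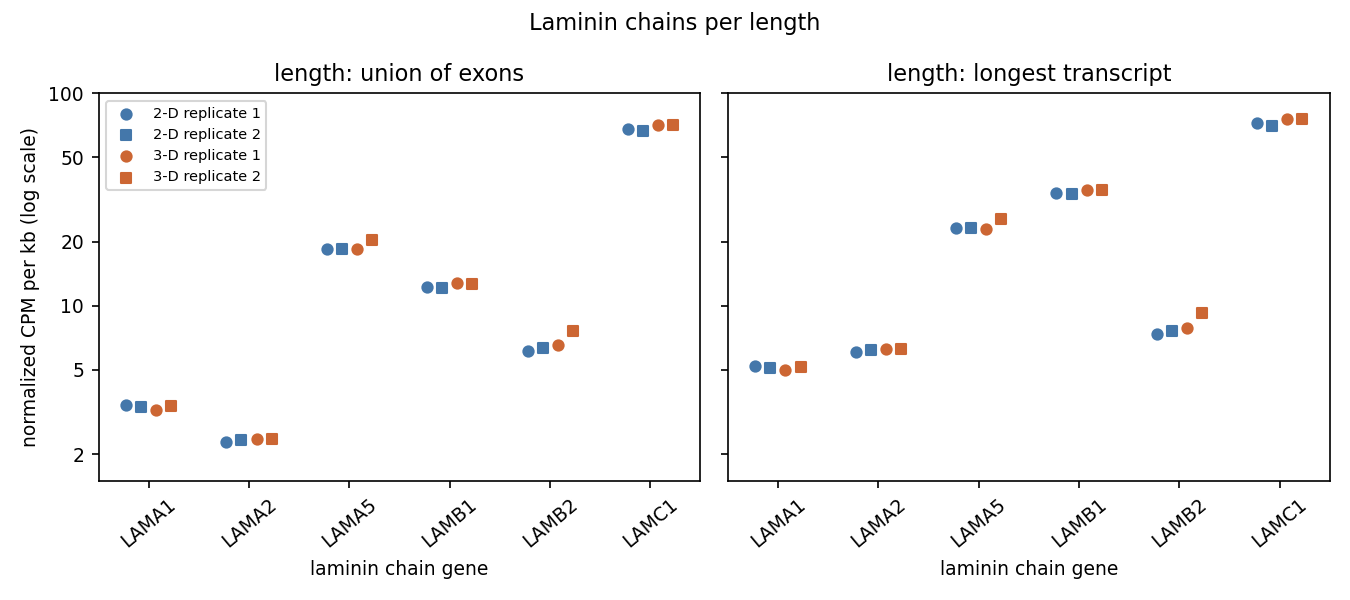
Normalized CPM per kb (log axis) of 6 laminin chain genes in each library, with length taken as the union of exons (left) or the longest transcript (right). LAMC1 is highest in both panels and LAMA5 and LAMB1 lead the α and β chains, while LAMA5 and LAMB1 change order between the panels.

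Ratios of alternative chains within a library were compared between conditions with a two-sided exact permutation test, in which 2 against 2 libraries cannot give a p below 0.333. LAMA5 over LAMA1 was 5.43 and 5.55 in 2-D and 5.68 and 6.10 in 3-D, a difference of 0.10 in mean log2 ratio (exact p = 0.333, BH adjusted over 4 ratios 0.444). LAMB2 over LAMB1 was 0.495 and 0.522 in 2-D and 0.514 and 0.603 in 3-D, and the conditions overlapped (exact p = 0.667, adjusted 0.667).

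Among the nidogens, NID1 was higher in 3-D grown cells. NID1, on chromosome 1 from 235975830 to 236065109 (minus strand), had 49.5 and 46.6 CPM in 2-D and 56.6 and 58.2 in 3-D. Both 3-D libraries exceeded both 2-D libraries, and the gap between conditions was larger than the difference within either. The log2 fold change was 0.25 (SE 0.05, 95% interval 0.15 to 0.36, edgeR QL test, BH adjusted p = 0.00533), the largest of the 10 genes upward. Without 2-D replicate 2 it was 0.21 and no longer passed (edgeR QL test, BH adjusted p = 0.0903).

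NID2, on chromosome 14 from 52004809 to 52069059 (minus strand), encodes the second nidogen, which can partly stand in for the first. It had 8.51 and 9.51 CPM in 2-D and 7.44 and 7.59 in 3-D, from 293, 293, 153 and 136 counts. Both 3-D libraries were below both 2-D libraries, yet the log2 fold change of −0.26 (SE 0.11, 95% interval −0.50 to −0.02) did not pass (edgeR QL test, BH adjusted p = 0.190). RTRAF, a gene on the opposite strand with 1909 exon bases in common with NID2, had 2650 to 5031 counts in a library and a log2 fold change of 0.05. Whether the counting used strand is not stated in the sources used here, and reads of the shared bases cannot be told apart without it. NID2 over NID1 per kb of exons was 0.161 and 0.191 in 2-D and 0.123 and 0.122 in 3-D, a difference of −0.52 in mean log2 ratio (exact permutation p = 0.333, adjusted 0.444). This was the ratio with the widest gap among the 4 compared, at the smallest p the design allows.

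HSPG2, on chromosome 1 from 21822244 to 21937310 (minus strand), encodes perlecan, a large heparan sulfate proteoglycan, and was higher in 3-D grown cells. It had 67.3 and 67.9 CPM in 2-D and 76.9 and 77.8 in 3-D, so that replicates nearly coincided and the conditions were apart. The log2 fold change was 0.19 (SE 0.04, 95% interval 0.12 to 0.27, edgeR QL test, BH adjusted p = 0.00488). Once offsets for length and GC content entered the fit, it was 0.11 and not called (edgeR QL test, BH adjusted p = 0.0989). It was also not called without 2-D replicate 1 (0.19, edgeR QL test, BH adjusted p = 0.0749) or without 2-D replicate 2 (0.20, edgeR QL test, BH adjusted p = 0.0572). LDLRAD2, on the opposite strand, shares 2122 exon bases with HSPG2 but had only 121 to 280 counts, against 1395 to 2317 for HSPG2.

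Promoters are shown for the called genes NID1 and HSPG2, for NID2 as the other nidogen, and for LAMC1 as the gene of highest level. They are the bases before the RefSeq start (GRCh38.p14), read 5′ to 3′ on the strand of the gene, and capitals mark GC boxes (GGGCGG on either strand, overlapping matches included), the element that transcription factors of the SP family bind. The NID1 stretch is chr1:236065110-236065340, the HSPG2 stretch chr1:21937311-21937560 and the NID2 stretch chr14:52069060-52069309, all on the minus strand, and the LAMC1 stretch is chr1:183023170-183023419 on the plus strand. In NID1, 19 bases nearest the RefSeq start were left out because GENCODE places them in an exon.
NID1: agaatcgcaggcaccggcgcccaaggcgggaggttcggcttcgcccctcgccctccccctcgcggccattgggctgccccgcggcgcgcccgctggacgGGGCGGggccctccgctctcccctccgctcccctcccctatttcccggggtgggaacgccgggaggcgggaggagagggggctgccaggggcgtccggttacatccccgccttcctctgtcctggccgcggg
HSPG2: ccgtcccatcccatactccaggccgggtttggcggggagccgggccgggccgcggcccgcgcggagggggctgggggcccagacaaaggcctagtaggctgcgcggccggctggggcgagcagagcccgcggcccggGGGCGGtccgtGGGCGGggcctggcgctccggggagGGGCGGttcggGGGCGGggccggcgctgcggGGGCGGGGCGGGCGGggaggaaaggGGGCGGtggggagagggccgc
NID2: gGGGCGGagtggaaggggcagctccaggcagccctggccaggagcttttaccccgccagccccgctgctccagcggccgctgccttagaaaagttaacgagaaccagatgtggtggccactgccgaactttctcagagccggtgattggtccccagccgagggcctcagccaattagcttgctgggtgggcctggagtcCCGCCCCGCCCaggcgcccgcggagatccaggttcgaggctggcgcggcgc
LAMC1: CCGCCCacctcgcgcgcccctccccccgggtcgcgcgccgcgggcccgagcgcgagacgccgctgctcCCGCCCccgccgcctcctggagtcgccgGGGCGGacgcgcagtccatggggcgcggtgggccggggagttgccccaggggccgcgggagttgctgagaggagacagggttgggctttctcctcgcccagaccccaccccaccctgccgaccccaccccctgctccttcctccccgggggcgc
HSPG2 had 8 GC boxes in its 250 bases, NID2 and LAMC1 had 3 each and NID1 had 1. Of the 10 genes, 8 matched a promoter of the table and 7 of those held at least 1 GC box, as did 42.3% of the 27305 promoters in the table. LAMA5 had 5, LAMB1 4 and LAMB2 1, whereas SPARC had 0. The GC content of the 250 bases was 82.8% in HSPG2 and LAMA5, 79.6% in LAMC1, 76.4% in NID1, 70.4% in LAMB1, 68% in NID2, 59.2% in SPARC and 58.4% in LAMB2, against a median of 58% over all promoters. The called and the uncalled genes were not separated by either measure. None of the 8 held TATAAA, which 11.1% of all promoters did, and none held the AP-1 element TGACTCA (4.16%) or the cyclic AMP element TGACGTCA (1.77%). The TEAD element GGAATG, found in 11.9% of promoters, was present once, in SPARC, and CCAAT (33.0%) was present in NID1 and NID2. All motifs were searched on both strands, and a match is a string of letters and not a measured binding site.

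AGRN, on chromosome 1 from 1020120 to 1056118, encodes agrin, the heparan sulfate proteoglycan that clusters acetylcholine receptors at the neuromuscular junction. It had 126 and 127 CPM in 2-D and 120 and 138 in 3-D, so that the 2-D libraries lay between the 3-D libraries. The log2 fold change was 0.03 (SE 0.05, 95% interval −0.08 to 0.13, edgeR QL test, BH adjusted p = 0.811). It turned to −0.07 without 3-D replicate 2 and was 0.12 and called without 3-D replicate 1 (edgeR QL test, BH adjusted p = 0.0145). AGRN over HSPG2 per kb of exons was 3.14 and 3.15 in 2-D and 2.63 and 2.98 in 3-D, a difference of −0.17 in mean log2 ratio (exact permutation p = 0.333, adjusted 0.444).

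SPARC, on chromosome 5 from 151661096 to 151686975, had 241 and 242 CPM in 2-D and 247 and 250 in 3-D. The 3-D libraries were above the 2-D libraries by a small margin, with a log2 fold change of 0.04 (SE 0.03, 95% interval −0.02 to 0.10, edgeR QL test, BH adjusted p = 0.485).

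**Figure D3:**
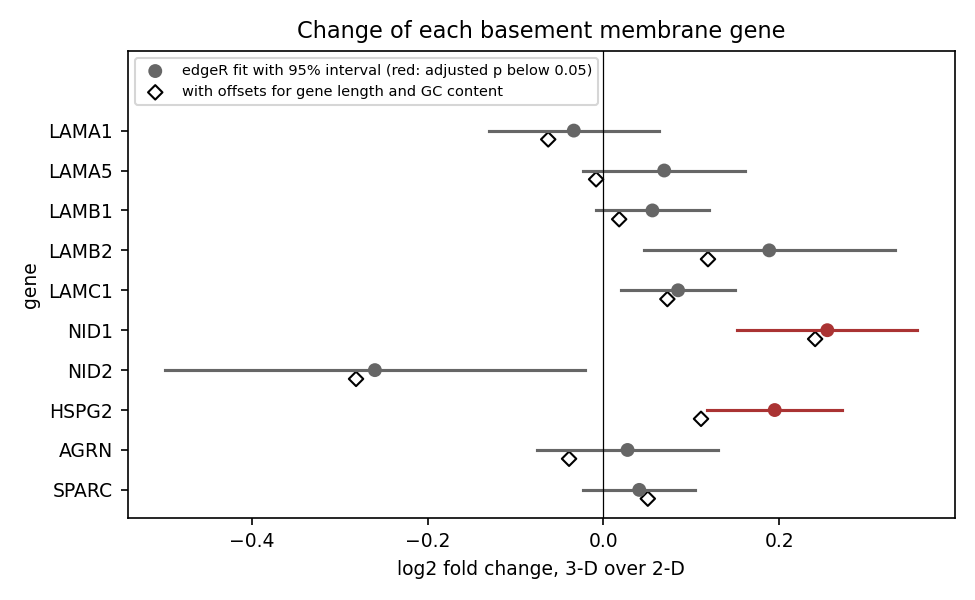
Log2 fold change between culture conditions (positive values are higher in 3-D) for the 10 genes, with the 95% interval from edgeR's quasi-likelihood fit. Diamonds give the fit with offsets for length and GC content, and red marks called genes. The intervals of NID1, HSPG2, LAMC1 and LAMB2 lie above 0 and that of NID2 below 0, and NID1 and HSPG2 passed the adjusted threshold.

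The difference between the 3-D replicates was unevenly spread over the 10 genes. As log2 of replicate 2 over replicate 1 in 3-D, it was 0.22 for LAMB2, 0.19 for AGRN and 0.15 for LAMA5, and −0.01 to 0.05 for the others. These 3 genes have transcripts rich in G and C (60.3, 67.9 and 66.4%), but HSPG2, with 64.5%, had a difference of 0.02. Over all genes at 5 CPM or more, the median of this replicate difference was −0.0077 at 40 to 50% GC and 0.058 at 60 to 75%. The median log2 fold change between conditions moved with GC content as well, from −0.036 at 30 to 40% to 0.070 at 60 to 75%. Across these 12406 genes, which share libraries, Spearman's rho of GC content was 0.154 with the 3-D replicate difference, −0.141 with that of the 2-D replicates and 0.234 with the fold change. The part of GC content in the values of single genes was not tested beyond the fit with offsets. In that fit NID1 stayed called with a log2 fold change of 0.24 (edgeR QL test, BH adjusted p = 0.00686).

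**Figure D4:**
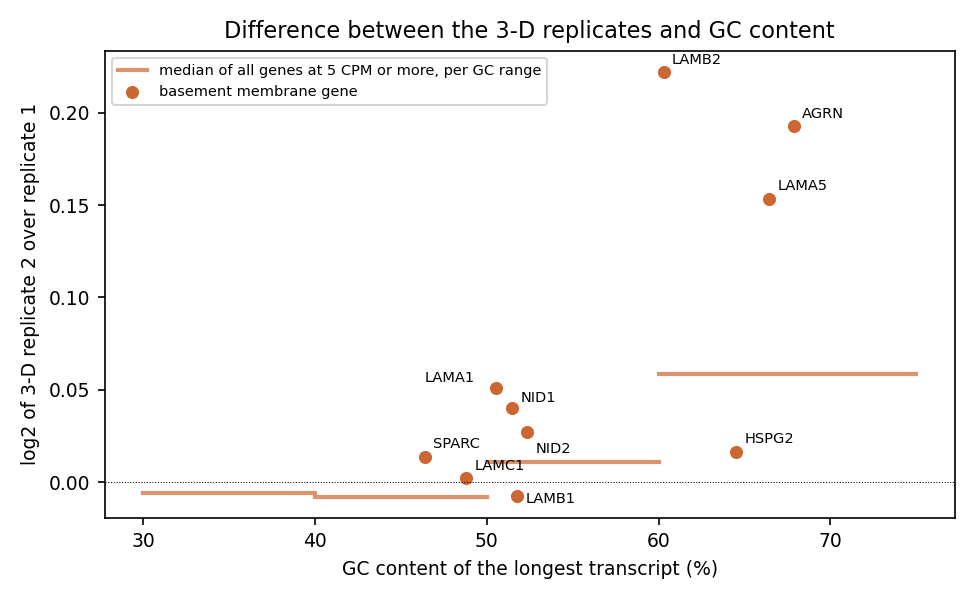
Log2 of 3-D replicate 2 over 3-D replicate 1 against the GC content of the longest transcript (%), with the 10 genes as points and the median of all genes at 5 CPM or more in 4 GC ranges as lines. LAMB2, AGRN and LAMA5 lie at 0.15 to 0.22, above the line of 0.058 for 60 to 75% GC, and HSPG2 lies below it at 0.02.

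The partners of these genes were described with 9 lists of related genes, 88 in all, of which 83 were tested, 10 were called higher and 1 lower, beside the 4.54% and 3.36% of all tested genes. With the length and GC offsets 5 of these calls held, those of ITGB1, COL4A5, PLOD1, MIA3 and SULF2. Scaled by library size only, the receptor list, the collagen folding list and the list of other basement membrane proteins had 0 calls each. The basement membrane collagens had 1 and the SPARC family 1. The dystroglycan glycosylation list and the cell surface proteoglycan list had 2 each, and the heparan sulfate synthesis and editing list had 4. Laminin receptors had the largest median. Of 7 tested receptor genes, 3 were called higher, none was called lower, and the median log2 fold change was 0.17. ITGB1, the integrin β1 subunit shared by most laminin-binding integrins, had 519 and 515 CPM in 2-D and 572 and 594 in 3-D, a log2 fold change of 0.17 (SE 0.03, edgeR QL test, BH adjusted p = 0.00485). DAG1, which encodes dystroglycan, had 221 and 220 CPM in 2-D and 236 and 244 in 3-D, a log2 fold change of 0.12 (SE 0.03, edgeR QL test, BH adjusted p = 0.0263). BCAM, a receptor of the α5 chain, had 23.6 and 22.4 CPM in 2-D and 27.2 and 28.6 in 3-D, a log2 fold change of 0.28 (SE 0.07, edgeR QL test, BH adjusted p = 0.0272). In all 3 genes both 3-D libraries lay above both 2-D libraries. Over all tested genes, libraries of the conditions did not overlap in 50.5%. With the likelihood ratio test or DESeq2 the receptor list had 1 call, that of ITGB1. Without either 2-D library none of the 3 passed, with adjusted p between 0.0545 and 0.277 in the edgeR test, and without 3-D replicate 2 BCAM did not pass (adjusted p = 0.0574, edgeR).

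Among 7 tested collagen genes of basement membranes, 1 rose and 1 fell, with a median log2 fold change of 0.07. COL4A2, the α2 chain of type IV collagen, had 195 and 191 CPM in 2-D and 209 and 222 in 3-D (log2 fold change 0.16, SE 0.03, edgeR QL test, BH adjusted p = 0.0130). COL4A5, the α5 chain of the same collagen, had 76.5 and 74.25 CPM in 2-D and 67.7 and 67.6 in 3-D (log2 fold change −0.16, SE 0.04, edgeR QL test, BH adjusted p = 0.0204). With the likelihood ratio test the list had 0 calls, and with DESeq2 it had 1, that of COL4A2. By their estimates, the listed genes of type IV collagen thus did not move one way. Neither call held without either 2-D library, with adjusted p between 0.0634 and 0.283 in the edgeR test.

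Enzymes and chaperones of collagen folding and secretion had 4 calls among 9 tested genes, all higher, with a median log2 fold change of 0.12. They were SERPINH1, the collagen chaperone of the endoplasmic reticulum (0.12, adjusted p = 0.0404, edgeR), P4HB, a subunit of prolyl 4-hydroxylase (0.14, adjusted p = 0.0118, edgeR), PLOD1, a lysyl hydroxylase (0.22, adjusted p = 0.0114, edgeR), and MIA3, which helps to load collagen into transport vesicles (0.14, adjusted p = 0.0216, edgeR). PLOD1 had 45.6 and 45.0 CPM in 2-D and 52.1 and 53.4 in 3-D. With the likelihood ratio test the list had 1 call, that of PLOD1, and with DESeq2 it had 1, that of P4HB, so no gene was called by both. Without either 2-D library none of the 4 passed, with adjusted p between 0.0729 and 0.427 in the edgeR test, and MIA3 did not pass without 3-D replicate 1 either (adjusted p = 0.0569, edgeR).

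Of 12 other basement membrane proteins, PXDN, the peroxidase that crosslinks type IV collagen, was called higher, with 298 and 292 CPM in 2-D and 318 and 334 in 3-D (log2 fold change 0.14, SE 0.03, edgeR QL test, BH adjusted p = 0.0178), and the other 11 were not called. The PXDN call was lost without 2-D replicate 1 (adjusted p = 0.107, edgeR) or 2-D replicate 2 (adjusted p = 0.232, edgeR). Among 16 genes of heparan sulfate synthesis and editing, SULF2, which removes sulfate groups from heparan sulfate outside the cell, had 122 and 120 CPM in 2-D and 140 and 135 in 3-D. Its log2 fold change of 0.19 (SE 0.03, edgeR QL test, BH adjusted p = 0.00255) was the only call of that list, and it held when any library was left out.

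No gene was called in the other 4 lists. Of 5 tested genes listed as other laminin chains, LAMA2 (60.4 to 62.6 CPM) and LAMC3 (26.4 to 31.8 CPM) had the highest CPM, with log2 fold changes of 0.04 and 0.15. Of 13 dystroglycan glycosylation genes, whose enzymes build the sugar on which laminin binding to dystroglycan depends, 8 were below 0, and B3GALNT2 and POMK, the highest by CPM, had −0.06 and −0.16. Of 9 tested cell surface heparan sulfate proteoglycans, GPC4 (1202 to 1258 CPM) had 0.04 and SDC4 −0.03. Of 5 tested relatives of SPARC, FSTL1 (167 to 178 CPM) had −0.06 and SPOCK1 0.22.

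**Figure D5:**
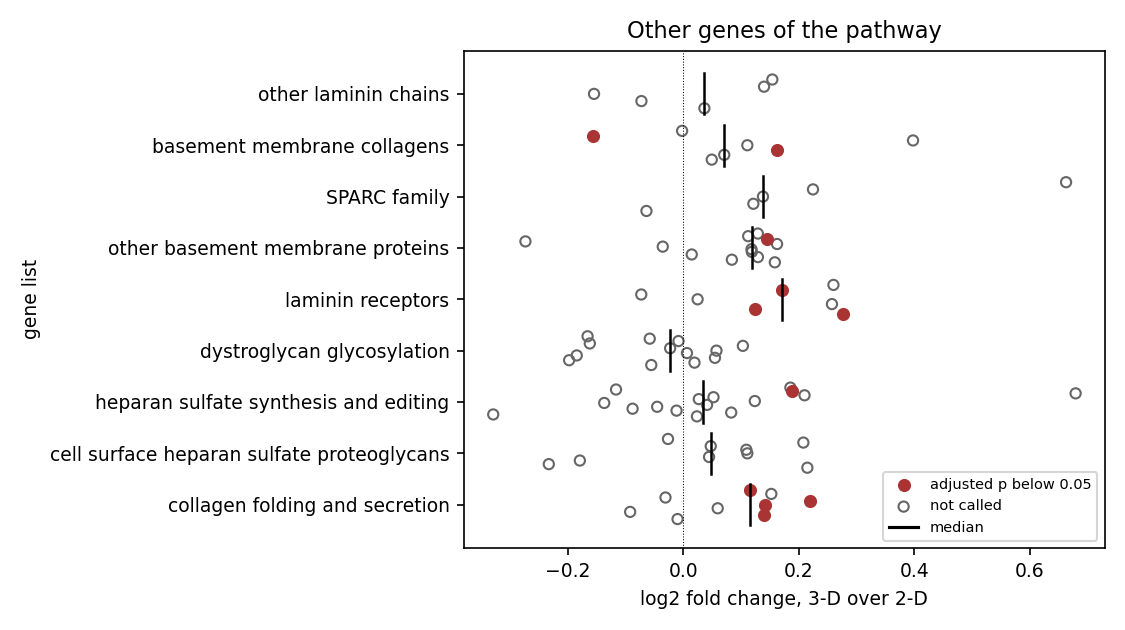
Log2 fold change (positive values are higher in 3-D) for each tested gene of the 9 lists, with the median of a list as a bar and called genes filled in red. Receptors and collagen folding genes hold 7 of the 11 calls under TMM scaling (0 with library size only), and COL4A5 in the collagen row is the only call below 0.

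Markers of other cells that make basement membrane or matrix were examined in the same libraries. Extraembryonic endoderm, which secretes much laminin in the embryo, had marker sums of 8.45 and 8.66 CPM in 2-D and 10.2 and 10.3 in 3-D over 7 genes. None of its 4 tested genes was called, TTR was at 0 in all libraries, SOX17 had 3 to 5 and FOXA2 2 to 8 counts, and GATA6 had 0.842 and 1.10 CPM in 2-D and 2.34 and 1.51 in 3-D, from 27 to 48 counts, a log2 fold change of 1.001 (edgeR QL test, BH adjusted p = 0.0516). Of this list 1 gene was called with edgeR's likelihood ratio test, with either other filter on low counts, with the replicate block, with block and offsets, and without 3-D replicate 2. Fibroblast or feeder markers were counted as human genes, whereas the feeders in the study's methods were mouse cells. The markers summed to 546 and 538 CPM in 2-D and 558 and 608 in 3-D over 9 genes. Of 7 tested, 4 were called higher in edgeR's test, namely COL1A1 (log2 fold change 0.29), COL3A1 (0.73), POSTN (0.65) and THY1 (0.22), while COL1A2 had −0.04, DCN 2 to 6 counts and LUM 3 to 17 counts. POSTN lost its call with 2-D counts randomly thinned to the 3-D depth (log2 fold change 0.50, adjusted p = 0.0903, edgeR QL test), and DESeq2 gave it no adjusted p. It also lost its call without 2-D replicate 1, 2-D replicate 2 or 3-D replicate 2. Its log2 fold change was 0.65 without either 2-D library. Trophoblast markers summed to 3.63 and 4.38 CPM in 2-D and 4.72 and 5.13 in 3-D with none of 4 tested genes called. HAND1 had a log2 fold change of 0.98 (edgeR QL test, BH adjusted p = 0.0695), 1 gene of the list was called with the likelihood ratio test and with either other filter, and CGA and VGLL1 were at 0 in all libraries. The summed fibroblast, endoderm and trophoblast levels were thus higher in both 3-D libraries than in both 2-D libraries. The core and naive pluripotency sums overlapped between the conditions. Among single genes, libraries of the conditions did not overlap in 50.5% of all tested genes. COL1A2, with 301 to 325 CPM, was the largest part of the fibroblast sum. The part of such cells in the values of NID1 and HSPG2 was not tested.

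Each of the 10 transcripts aligned to a single place in hg38, so near-identical copies were not found for them. LAMA5-AS1, a noncoding RNA on the strand opposite LAMA5 with 118 exon bases in common, had 182 to 243 counts and was called higher in 3-D grown cells (log2 fold change 0.50, edgeR QL test, BH adjusted p = 0.0337). ADRM1, a proteasome receptor gene also opposite LAMA5, shares 244 exon bases and had 1440 to 2546 counts, with a log2 fold change of 0.05, against 5253 to 9140 counts for LAMA5. Opposite LAMB1, DLD (2370 to 4635 counts) shares 300 bases and ENSG00000273055 (31 to 89 counts) 184. Opposite SPARC, CLMAT3 (131 to 201 counts) shares 191 bases and had a log2 fold change of 0.36 (edgeR QL test, BH adjusted p = 0.0858). Opposite LAMA1, ENSG00000265069 (29 to 76 counts) shares 1641 bases and ENSG00000264475 (29 to 72 counts) 113. On the strand of AGRN, ENSG00000242590 shares 402 bases and had 0 counts in every library, as had MIR4758 within LAMA5.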

How the data were processed

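Total RNA of 2-D and 3-D grown Elf1 cells (2 libraries each) was depleted of ribosomal RNA and sequenced with paired ends. Per the labels, the authors used Trim Galore 0.6.3, HISAT2 2.1.0 (hg38), featureCounts 1.6.4 and DESeq2 (its listed version is not in the numbering of the R package and is left out). The authors deposited unnormalized counts, whole numbers for each gene and library. The authors also deposited a normalized signal, which is the counts divided by 1 size factor per library, used here in 2 alternatives. That table holds the authors' log2 fold changes, scores, p-values and adjusted p-values too, which were not used.

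Counts were tested with edgeR 4.0.16 in R 4.3.3 (filterByExpr, TMM, quasi-likelihood test, condition only, Benjamini-Hochberg over 22555 genes). The standard error is the size of the log2 fold change over the square root of F. Names, positions, lengths and GC content came from GENCODE release 44, which 60295 of 60564 identifiers matched. Transcripts were aligned to hg38 with minimap2 2.31-r1302 to find copies. On simulated counts, the test called 27.9% of genes changed by 0.25, 71.2% of those changed by 0.5 and 95.5% of those changed by 1 (log2). Most changes of 0.25 were thus missed in that simulation. The simulation also had 22 calls among unchanged genes, beside 19, 47 and 63 among genes changed by 0.25, 0.5 and 1. False calls thus made up a larger share of its calls than the threshold on adjusted p aims at. They outnumbered the true calls at 0.25, the simulated size nearest the log2 fold changes of NID1 and HSPG2. The share of false calls among the calls in the real data was not tested. Changed genes were drawn from all but the lowest levels. By mean CPM, the 10 genes lay above 51.9 to 99.2% of tested genes, so these shares may not hold for them. Depth was 18276147 to 33833778 counts per library.

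The 10 genes and the lists of related and marker genes were chosen with earlier results of these data known. All 10 are named. A gene related to them was left out and is not reported here. Of the related lists the called genes are named, or, with none called, the 2 of highest CPM. Of the marker lists those called or at 0 counts are named, and of overlapping genes those that share exon bases. DPPA5, KLF17, SOX17, FOXA2, GATA6, HAND1, COL1A2, DCN and LUM were named after their values were seen. Alternatives were another test (edgeR likelihood ratio, DESeq2 1.42.0, limma-trend 3.58.1 on the signal plus 1 or 0.5), scaling (DESeq2 size factors, library size, without mitochondrial genes), filter (none, at least 10 counts in every library), thinned 2-D libraries, length and GC offsets (splines with 5 degrees of freedom), a replicate block, and each library left out. Leaving out 1 library leaves its condition with 1, which is then assumed to vary like the other condition.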

Additional observations from a re-analysis of the deposited data

How the results depend on the processing

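NID1 kept its direction and its call under every alternative run except without 2-D replicate 2, with log2 fold changes of 0.19 to 0.30. HSPG2 kept its direction (0.11 to 0.22) and lost its call under length and GC offsets (0.11), under those offsets with the replicate block (0.11, edgeR adjusted p = 0.0732) and without either 2-D library. Directions turned for LAMA5 with the offsets (−0.0083), with offsets and block (−0.0085) and without 3-D replicate 2, for AGRN when scaled by library size only (−0.037), with the offsets (−0.039), with offsets and block (−0.039) and without 3-D replicate 2, and for LAMB1 (−0.0086) and SPARC (−0.024) under library size only. Leaving out a library gave −0.010 to 0.14 for LAMA5 and −0.072 to 0.12 for AGRN. LAMB2 was called with no filter on low counts (edgeR adjusted p = 0.0164) and LAMC1 as well (0.0403). Of the 10 genes, 4 were called with no filter, 1 with the offsets, 1 with offsets and block, and 0 to 6 when a library was left out. The 0 came without 2-D replicate 2 and the 6 without 3-D replicate 1. Genes called over all tested, 1782 in the main test, numbered 1139 with edgeR's likelihood ratio test, 834 with DESeq2 and 792 to 2390 when a library was left out. Scaled by library size only, 514 genes were higher and 1879 lower, against 1024 and 758, and the median of all genes moved to −0.06. Of the 83 tested genes of the related lists, 11 were called, but 4 with the likelihood ratio test, 5 with DESeq2, 5 with the offsets and 1 to 18 when a library was left out. The labels number the replicates in both conditions without saying that a number marks shared cells or days, and the deviations of same-numbered libraries had a correlation of −0.0739 over 12431 genes, so that the numbers were not taken as a pairing. With the replicate block, 2167 genes were called, LAMB2 among them (edgeR adjusted p = 0.0294), so 3 of the 10. DESeq2 gave no adjusted p for NID2. The causes of these differences were not tested.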
